A study of Mus musculus with 18 samples.

Results

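The genes described here are 32 components of blood coagulation and fibrinolysis, out of 21018 genes listed in at least 1 of the 3 gene count tables. They were chosen by name: the clotting factors, their cofactors, the inhibitors of clotting, the plasmin system and the thrombin receptor F2r, with the fibrinogen chains left out. All 32 were listed in the Pico and TruSeq tables and 31 in the V4 table, where Plau was not listed. The rule uses no expression value, but the members and their roles were chosen with earlier results of these data known.

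The samples were livers of 12-week-old male C57/B6J mice, taken 4 hours after an intraperitoneal injection of 20 µg/kg IL-1β, an inflammatory cytokine, or of saline. There were 3 IL-1β mice, named I9579, I9582 and I9583, and 3 saline mice, named U9574, U9575 and U9576, and values are given in that order within each treatment. RNA of each mouse entered 3 library kits: Pico, a stranded total RNA kit (1.7 to 2.6 ng), V4, an unstranded poly(A) kit (0.8 to 1.3 ng), and TruSeq, a stranded poly(A) kit (200 ng). The kits are thus repeated measurements of the same 6 livers. TruSeq also differed from Pico and V4, which shared both, in read length (125 against 150 bases) and in sequencer. The kits also differed in run, and none of these differences can be told apart from the kit. Total gene counts per library ranged from 4024632 to 4134070 (Pico), from 12013453 to 12352473 (V4) and from 12348864 to 12858237 (TruSeq), and values below are deposited reads per gene. Levels of the hepatocyte genes Alb, Ttr, Apoa1, Apob and Tf (listed as Trf), with the regulator Hnf4a, summed to 86588 to 104279 CPM (reads scaled to a common library total of 1000000) in the saline mice of TruSeq. The study's methods state that the animals were perfused with PBS.

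Clotting is a cascade of proteases that circulate as inactive precursors. It can start when tissue factor meets factor VII, or by contact activation of factor XII, and both routes lead to prothrombin and to a cross-linked fibrin mesh. Antithrombin, heparin cofactor II, the protein C system and the protein Z system restrain it, and plasmin dissolves the mesh. Hepatocytes make most of the soluble proteins, while endothelial cells, macrophages and megakaryocytes supply thrombomodulin, von Willebrand factor, factor VIII and factor XIII A among others.

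The promoters were searched for short motifs of transcription factors of the acute phase (C/EBP, STAT and κB) and of hepatocytes (HNF1). Promoter windows of 250 bases before to 50 after the start, taken from RefSeq on GRCm38.p6, were found for 24 members (26 windows, with a pair each for Tfpi and F13a1) and not for the other 8. The C/EBP letters TTGCNNAA, searched on both strands, occurred in 9 of the 26 windows, and in 10.8% of all 32851 windows of that length. The 9 were those of Cpb2 and Plaur, which rose, of F11, Klkb1, Hrg, Serpinc1 and F9, which fell in at least 1 kit, and of Procr and Kng2, which were not called. The STAT letters TTCNNNGAA occurred in 2 windows (Pros1 and F9) and in 8.30% of all windows, the κB consensus in 1 (F8) and in 8.46%, and the HNF1 consensus in none and in 0.116%. These are letter matches and not binding sites. The windows below are shown for a gene that rose (Cpb2), for the neighbours F11 and Klkb1, which fell together, and for F9, which holds both kinds of match. They run 5′ to 3′ on the strand of the gene, and capitals mark the matches, which on the minus strand of the window read as TTNNGCAA.
Cpb2 (chr14:75242037-75242336, plus strand): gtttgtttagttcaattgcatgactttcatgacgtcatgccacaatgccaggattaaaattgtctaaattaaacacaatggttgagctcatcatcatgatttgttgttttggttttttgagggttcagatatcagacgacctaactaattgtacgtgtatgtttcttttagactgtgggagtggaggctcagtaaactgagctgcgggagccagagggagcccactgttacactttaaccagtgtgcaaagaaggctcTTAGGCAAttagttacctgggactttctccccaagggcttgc
F11 (chr8:45261982-45262281, minus strand): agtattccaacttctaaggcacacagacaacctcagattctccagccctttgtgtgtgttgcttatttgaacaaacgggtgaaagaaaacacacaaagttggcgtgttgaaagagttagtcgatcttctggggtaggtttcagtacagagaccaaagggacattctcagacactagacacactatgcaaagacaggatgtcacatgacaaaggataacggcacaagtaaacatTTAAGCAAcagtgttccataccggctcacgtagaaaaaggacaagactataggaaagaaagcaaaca
Klkb1 (chr8:45294786-45295085, minus strand): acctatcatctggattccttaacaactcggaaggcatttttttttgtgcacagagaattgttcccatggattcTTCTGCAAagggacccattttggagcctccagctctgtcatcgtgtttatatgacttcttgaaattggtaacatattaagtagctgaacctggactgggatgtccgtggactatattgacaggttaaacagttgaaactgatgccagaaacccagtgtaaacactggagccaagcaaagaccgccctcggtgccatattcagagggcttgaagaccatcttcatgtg
F9 (chrX:59999214-59999513, plus strand): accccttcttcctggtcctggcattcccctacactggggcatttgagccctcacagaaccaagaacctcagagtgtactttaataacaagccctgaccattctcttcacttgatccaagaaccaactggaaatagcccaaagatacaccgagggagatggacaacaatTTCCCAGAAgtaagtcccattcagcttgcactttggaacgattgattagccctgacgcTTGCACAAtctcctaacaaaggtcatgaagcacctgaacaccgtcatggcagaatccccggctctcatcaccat

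After IL-1β more of these genes fell than rose. In TruSeq, 18 of the 32 members fell and 5 rose at an adjusted p of at most 0.05 (limma-voom, Benjamini-Hochberg over all genes of the kit), where 21.8% of all genes tested fell and 12.3% rose. In Pico, 14 fell and 5 rose, against 10.8% and 6.78% of all genes. In V4, 7 of 31 fell and 3 rose, against 7.41% and 3.6%. The genes that rose in all 3 kits were Serpina10, Cpb2 and Plaur, and those that fell in all 3 were F3, F5, F7, Klkb1, Proz and Serpind1. The members not called in any kit were F2, F10, F12, Kng2, Pros1, Procr, Serpinf2 and Plau.

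The split between rises and falls depended on the scaling. With library totals the log2 fold changes over all genes had medians of -0.12 (Pico), -0.22 (V4) and -0.17 (TruSeq), and TMM factors raised these medians by 0.13, 0.17 and 0.16. The medians of the members were -0.23, -0.41 and -0.37 with library totals and -0.10, -0.24 and -0.21 with TMM factors, so they lay below the medians of all genes under either scaling. With TMM factors, 13 members fell and 5 rose in Pico (8.16% and 9.16% of all genes), 6 fell and 3 rose in V4 (4.84% and 4.79%), and 14 fell and 7 rose in TruSeq (16.1% and 16.7%). Of the calls over all genes, 36.0% were rises in TruSeq with library totals and 50.9% with TMM factors, 38.6% and 52.9% in Pico, and 32.7% and 49.7% in V4. The plot of log2 fold changes shows all members in the 3 kits.

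**Figure D1:**
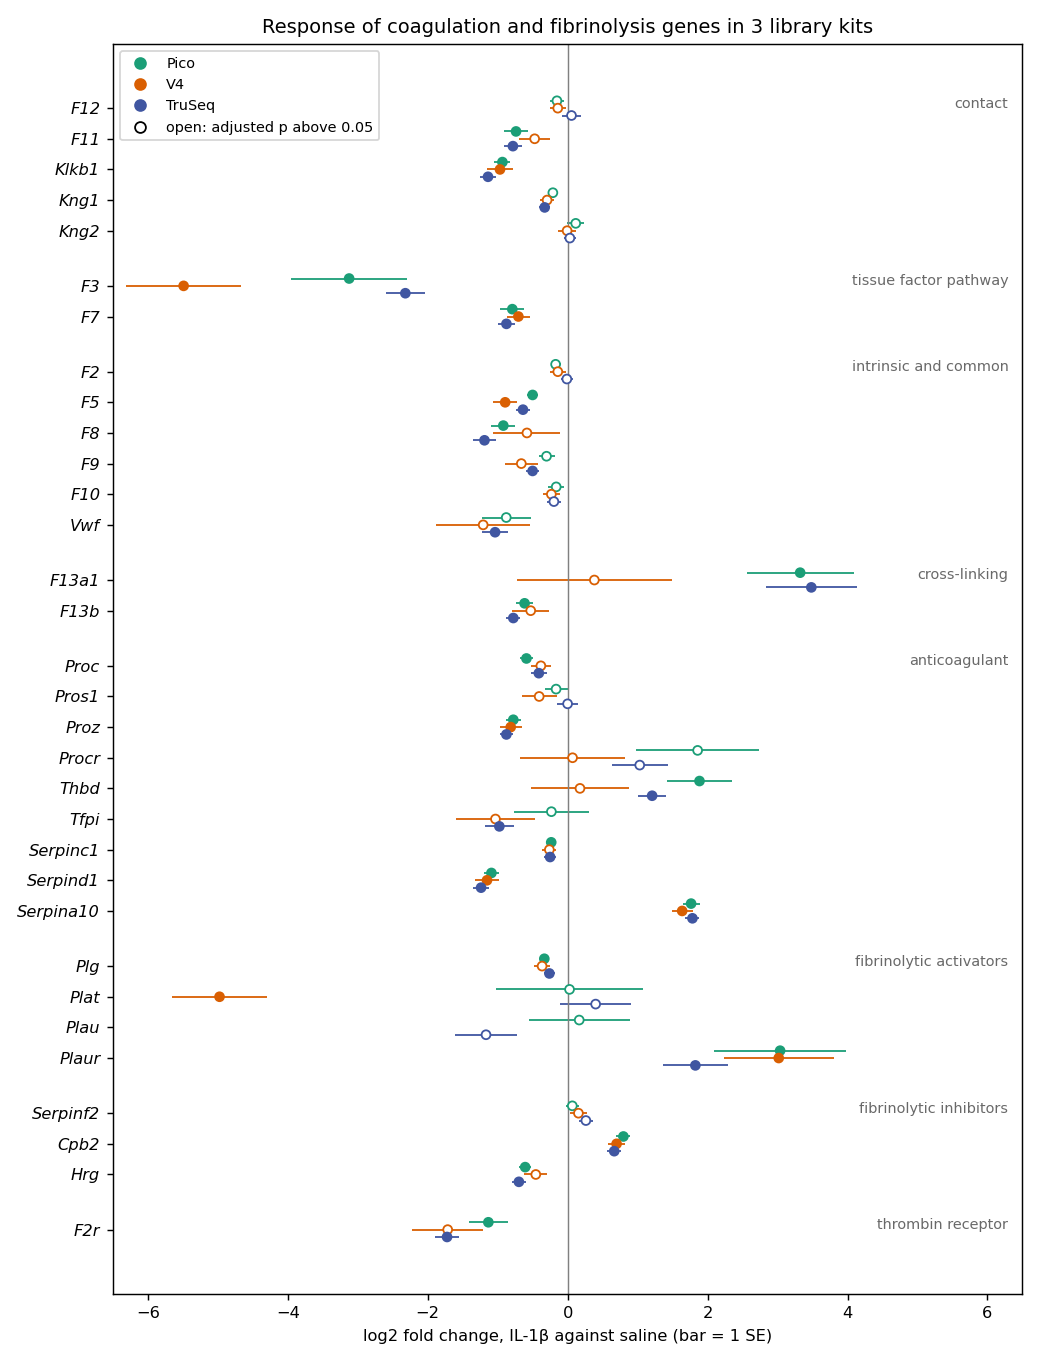
Log2 fold change of IL-1β against saline for each member (rows, grouped by role) in Pico, V4 and TruSeq, with bars of 1 SE; filled points have an adjusted p of at most 0.05 with library totals. Serpina10, Cpb2 and Plaur lie to the right of 0 in all 3 kits, and F3 lies farthest to the left in all 3. The V4 point of Plat rests on IL-1β libraries that are all at 0.

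F3 and F7, the pair that starts the tissue factor route, fell in every kit. F3 (mm9 chr3:121426455-121437970) encodes tissue factor, the membrane protein that starts clotting, and had 61, 60 and 55 reads in the saline mice and 8, 11 and 15 in the IL-1β mice in TruSeq. In V4 it had 105, 90 and 54 reads in the saline mice and 4, 0 and 2 in the IL-1β mice, and in Pico 19, 20 and 5 reads in the saline mice and 2, 0 and 2 in the IL-1β mice. The treatments did not overlap in any kit, and no IL-1β library held more than 15 reads. The log2 fold change was -2.32 ± 0.28 (SE) in TruSeq (adjusted p = 0.000221), -5.49 ± 0.82 in V4 (adjusted p = 0.00204) and -3.12 ± 0.83 in Pico (adjusted p = 0.0144). The Pico call was lost without any mouse other than U9576 (adjusted p = 0.0637 to 0.166 over those 5 fits). F7 encodes factor VII, the protease that tissue factor binds, and had 1007, 1191 and 1231 reads in the saline mice and 583, 538 and 696 in the IL-1β mice in TruSeq. Its log2 fold change was -0.88 ± 0.12 in TruSeq (adjusted p = 0.000569), -0.79 ± 0.17 in Pico (adjusted p = 0.0035) and -0.70 ± 0.16 in V4 (adjusted p = 0.0199, 0.0828 with TMM factors, so that call is lost). The V4 call was also lost without I9579, I9582, U9574 or U9575 (adjusted p = 0.0706 to 0.0828).

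The contact genes divided. Klkb1, the plasma prekallikrein gene, had 2530, 2175 and 2099 reads in the saline mice and 998, 1124 and 881 in the IL-1β mice in TruSeq, so the highest IL-1β count was below the lowest saline count. It fell by 1.14 on the log2 scale (SE 0.12, adjusted p = 0.000115), and by 0.93 in Pico and 0.97 in V4. Its exons share 313 of 2982 bases with Cyp4v3 on the same strand, which had a log2 fold change of -0.75 ± 0.11 in TruSeq, and reads in the shared stretch could belong to either gene. F11, the factor XI gene beside it on chromosome 8, had 1063, 1009 and 833 reads in the saline mice and 602, 544 and 489 in the IL-1β mice (log2 fold change -0.78 ± 0.13, adjusted p = 0.00127). In Pico it had 328, 427 and 301 reads in the saline mice and 220, 205 and 190 in the IL-1β mice and fell as well (adjusted p = 0.00534, and 0.0509 to 0.0547 without I9582 or I9583), while V4, with 584, 577 and 479 reads in the saline mice and 316, 487 and 387 in the IL-1β mice, overlapped between treatments and gave no call (adjusted p = 0.214).

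F12, the factor XII gene at the head of the contact route, had 3790, 3421 and 4463 reads in the saline mice and 3429, 3800 and 4547 in the IL-1β mice in TruSeq. The counts overlapped, and the log2 fold change was 0.05 ± 0.13 (adjusted p = 0.779). In Pico the treatments did not overlap for F12, without a call (-0.15 ± 0.11, adjusted p = 0.38). Kng1 and Kng2 encode kininogens, the precursors of bradykinin. Kng1 had 24828, 25289 and 26048 reads in the saline mice and 20366, 18440 and 20092 in the IL-1β mice, with a log2 fold change of -0.33 ± 0.08 (adjusted p = 0.0101, 0.145 with TMM factors, so that call is lost). In Pico Kng1 had 7084, 6648 and 7676 reads in the saline mice and 5972, 5741 and 6424 in the IL-1β mice (adjusted p = 0.0523), and in V4 49861, 48421 and 45432 reads in the saline mice and 37204, 37899 and 41608 in the IL-1β mice (adjusted p = 0.0865), so the treatments did not overlap there either. Kng2 had 3056, 3107 and 3119 reads in the saline mice and 3020, 2938 and 3255 in the IL-1β mice in TruSeq (log2 fold change 0.03 ± 0.08, adjusted p = 0.806). The longest coding transcripts of the 2 genes share 125 windows of 100 bases letter for letter, 5.80% of those of Kng1, where reads could be split between them.

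Of the factors of the intrinsic and common route, F5, F8, F9 and Vwf fell in TruSeq and F2 and F10 were not called. F5 encodes factor V, the cofactor of factor Xa, and had 9238, 8504 and 8598 reads in the saline mice and 4943, 6106 and 5415 in the IL-1β mice in TruSeq, a log2 fold change of -0.64 ± 0.10 (adjusted p = 0.00102). It also fell in Pico (-0.50 ± 0.08, adjusted p = 0.000204) and V4 (-0.89 ± 0.17, adjusted p = 0.00781). A stretch of 262 of its 7430 exonic bases overlaps the gene Gm16548 on the opposite strand, which the unstranded V4 counts cannot separate. F8, the gene of the cofactor factor VIII, had 159, 154 and 130 reads in the saline mice and 62, 60 and 65 in the IL-1β mice in TruSeq (-1.19 ± 0.16, adjusted p = 0.0004) and 325, 376 and 279 reads in the saline mice and 184, 148 and 174 in the IL-1β mice in Pico (-0.92 ± 0.17, adjusted p = 0.0012). In V4 it had 58, 57 and 37 reads in the saline mice and 50, 28 and 25 in the IL-1β mice, which overlapped (adjusted p = 0.518).

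F9, the factor IX gene, had 2836, 2956 and 2674 reads in the saline mice and 2020, 1907 and 1873 in the IL-1β mice in TruSeq, without overlap (-0.50 ± 0.09, adjusted p = 0.00198). In Pico it had 762, 771 and 725 reads in the saline mice and 595, 648 and 557 in the IL-1β mice (adjusted p = 0.0818). V4 gave 1104, 1151 and 702 reads in the saline mice and 701, 501 and 629 in the IL-1β mice (adjusted p = 0.104), and there saline mouse U9576 stood 1 read above the highest IL-1β mouse. Vwf encodes von Willebrand factor, which carries factor VIII and tethers platelets, and had 66, 69 and 74 reads in the saline mice and 33, 34 and 31 in the IL-1β mice in TruSeq (-1.04 ± 0.18, adjusted p = 0.00186). Pico had 47, 90 and 56 reads in the saline mice and 23, 35 and 44 in the IL-1β mice (adjusted p = 0.103) and V4 22, 37 and 19 reads in the saline mice and 17, 6 and 11 in the IL-1β mice (adjusted p = 0.304), where the treatments also did not overlap. F2, the prothrombin gene, had 18225, 18050 and 20323 reads in the saline mice and 17680, 17489 and 19285 in the IL-1β mice in TruSeq, with a log2 fold change of -0.01 ± 0.09 (adjusted p = 0.94) whose sign turned with TMM factors. F10, the factor X gene, had 4612, 4565 and 4962 reads in the saline mice and 3969, 3535 and 4518 in the IL-1β mice (-0.20 ± 0.10, adjusted p = 0.185). Its treatments did not overlap there or in V4 (-0.23 ± 0.12, adjusted p = 0.273), but did in Pico (-0.16 ± 0.11, adjusted p = 0.372). Those of F2 did not overlap in Pico (-0.17 ± 0.07, adjusted p = 0.115).

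The subunits of factor XIII, which cross-links fibrin, moved in opposite directions in the stranded kits. F13a1, the catalytic subunit, had 3, 2 and 0 reads in the saline mice and 14, 26 and 14 in the IL-1β mice in TruSeq and 4, 0 and 1 reads in the saline mice and 10, 18 and 16 in the IL-1β mice in Pico. It rose from near 0 in both, with a log2 fold change of 3.48 ± 0.65 in TruSeq (adjusted p = 0.0027) and 3.32 ± 0.76 in Pico (adjusted p = 0.00559, and 0.0553 to 0.0565 without I9582 or U9575). In V4 it had 2, 0 and 0 reads in the saline mice and 5, 0 and 0 in the IL-1β mice, too few reads for a call (adjusted p = 0.859). F13b, the carrier subunit, had 2583, 2599 and 2229 reads in the saline mice and 1355, 1478 and 1356 in the IL-1β mice in TruSeq and fell (-0.78 ± 0.10, adjusted p = 0.000349). In Pico F13b had 662, 722 and 692 reads in the saline mice and 429, 458 and 442 in the IL-1β mice (-0.62 ± 0.12, adjusted p = 0.00138), and in V4 1858, 1565 and 932 reads in the saline mice and 796, 1180 and 946 in the IL-1β mice (adjusted p = 0.249), with saline mouse U9576 inside the range of the IL-1β mice.

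**Figure D2:**
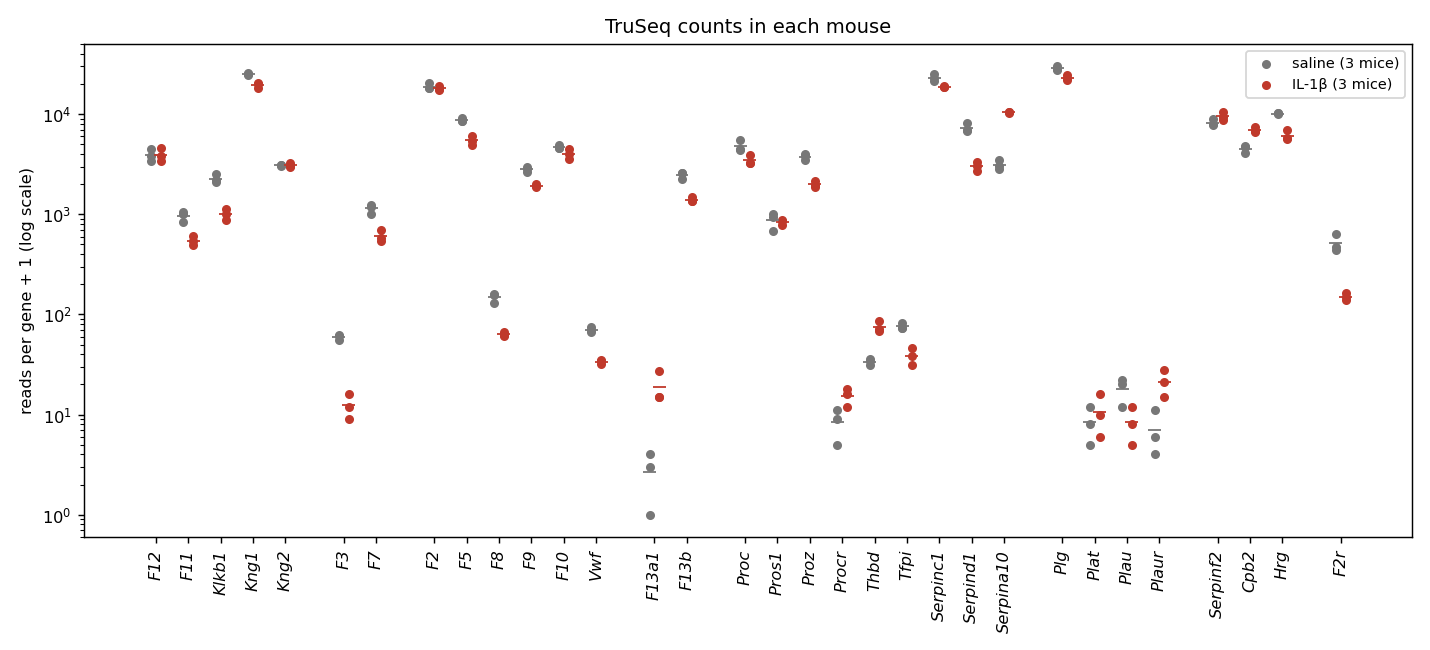
Reads per gene plus 1 on a log scale in the 6 TruSeq libraries, for the 32 members in order of role; each point is 1 mouse, grey for saline and red for IL-1β, and lines are means. Serpina10, Cpb2, Thbd, F13a1 and Plaur have all red points above the grey ones, and F3, F7, Klkb1, Proz, Serpind1 and F2r all below. These are examples, and other members also separate, such as Procr above and F5 and Hrg below.

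The anticoagulant genes held the member with the smallest adjusted p in each kit, a rise, and a fall of its cofactor. Serpina10 encodes the inhibitor of factor Xa that depends on protein Z (mm9 chr12:104854885-104869654), and had 3523, 3050 and 2817 reads in the saline mice and 10500, 10222 and 10506 in the IL-1β mice in TruSeq. That is 245 ± 30.3 CPM in the saline mice and 840 ± 10.6 in the IL-1β mice (SD, n = 3). The rise was 3.44-fold in TruSeq (log2 fold change 1.78 ± 0.10, adjusted p = 3.7e-06), 3.40-fold in Pico (adjusted p = 5.49e-08) and 3.11-fold in V4 (adjusted p = 9.85e-05). Proz encodes protein Z, the cofactor of that inhibitor, and had 3845, 3489 and 3978 reads in the saline mice and 1960, 1889 and 2129 in the IL-1β mice in TruSeq. It fell in TruSeq (-0.88 ± 0.09, adjusted p = 0.000119), in Pico (-0.78 ± 0.10, adjusted p = 6.18e-05) and in V4 (-0.81 ± 0.16, adjusted p = 0.0088, and 0.0551 without I9582). The reads of Serpina10 for each read of Proz went from 0.833 ± 0.110 to 5.23 ± 0.261 in TruSeq, from 0.357 ± 0.0412 to 2.07 ± 0.0752 in Pico and from 0.767 ± 0.0658 to 4.20 ± 0.397 in V4 (mean ± SD, n = 3). A ratio within a library does not depend on the scaling. It and the other ratios here were chosen after the values were seen and carry no test.

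Both heparin-dependent inhibitors of thrombin had lower counts, to unequal extents. Serpind1, the gene of heparin cofactor II (mm9 chr16:17331464-17343668), had 6996, 8143 and 6789 reads in the saline mice and 3291, 3053 and 2681 in the IL-1β mice in TruSeq. It fell in TruSeq (-1.24 ± 0.11, adjusted p = 4.06e-05), Pico (-1.09 ± 0.11, adjusted p = 4.11e-06) and V4 (-1.15 ± 0.17, adjusted p = 0.00191). Serpinc1, the antithrombin gene, had 21410, 23011 and 25120 reads in the saline mice and 18829, 18661 and 19099 in the IL-1β mice in TruSeq, 4993, 5057 and 5595 reads in the saline mice and 4328, 4500 and 4210 in the IL-1β mice in Pico and 43022, 46370 and 53102 reads in the saline mice and 38771, 40578 and 38556 in the IL-1β mice in V4. The treatments did not overlap, but the change was small: -0.25 ± 0.08 in TruSeq (adjusted p = 0.0425, 0.449 with TMM factors), -0.24 ± 0.07 in Pico (adjusted p = 0.0328, 0.42 with TMM factors) and -0.26 ± 0.10 in V4 (adjusted p = 0.134). Both Serpinc1 calls are therefore lost with TMM factors, and they were lost without each mouse in turn in Pico (adjusted p = 0.0579 to 0.118) and without any mouse other than U9574 in TruSeq (adjusted p = 0.0594 to 0.103). Reads of Serpind1 for each read of Serpinc1 went from 0.317 ± 0.0427 to 0.160 ± 0.0176 in TruSeq.

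The protein C system was mixed. Proc encodes protein C, which inactivates factors V and VIII, and had 4490, 4400 and 5492 reads in the saline mice and 3271, 3276 and 3925 in the IL-1β mice in TruSeq (-0.41 ± 0.12, adjusted p = 0.0204, 0.135 with TMM factors, so that call is lost). The TruSeq call was also lost without I9579, I9582, U9574 or U9576 (adjusted p = 0.055 to 0.0878). Pico gave 1683, 1556 and 1672 reads in the saline mice and 1086, 1083 and 1033 in the IL-1β mice (-0.59 ± 0.09, adjusted p = 0.000317) and V4 9507, 10939 and 13688 reads in the saline mice and 9259, 8437 and 8113 in the IL-1β mice (adjusted p = 0.119). Pros1, the gene of its cofactor protein S, had 1017, 938 and 682 reads in the saline mice and 786, 855 and 882 in the IL-1β mice in TruSeq and was not called (-0.001 ± 0.15, adjusted p = 0.995). Thbd encodes thrombomodulin, the endothelial receptor that turns thrombin to the activation of protein C, and had 33, 35 and 30 reads in the saline mice and 71, 84 and 67 in the IL-1β mice in TruSeq and 10, 7 and 16 reads in the saline mice and 44, 33 and 41 in the IL-1β mice in Pico. It rose 2.31-fold in TruSeq (log2 fold change 1.21 ± 0.20, adjusted p = 0.0012) and 3.69-fold in Pico (1.88 ± 0.47, adjusted p = 0.00935). In V4 it had 10, 10 and 26 reads in the saline mice and 20, 21 and 9 in the IL-1β mice, which overlapped (adjusted p = 0.896).

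Procr, the endothelial protein C receptor gene, had 8, 10 and 4 reads in the saline mice and 11, 17 and 15 in the IL-1β mice in TruSeq, without overlap (1.03 ± 0.40, adjusted p = 0.0775, 0.0463 with TMM factors, which gains a call). In Pico it had 0, 0 and 0 reads in the saline mice and 2, 4 and 0 in the IL-1β mice, in the range where no fold can be given, and V4 overlapped between treatments. Tfpi encodes the inhibitor of the tissue factor route and had 82, 72 and 72 reads in the saline mice and 30, 45 and 37 in the IL-1β mice in TruSeq, a log2 fold change of -0.98 ± 0.20 (adjusted p = 0.00476). Pico had 44, 13 and 17 reads in the saline mice and 12, 31 and 15 in the IL-1β mice (adjusted p = 0.8) and V4 34, 53 and 38 reads in the saline mice and 15, 36 and 14 in the IL-1β mice (adjusted p = 0.292), and both overlapped.

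In the plasmin system the inhibitor Cpb2 rose and plasminogen did not. Cpb2 encodes the carboxypeptidase that trims fibrin so that plasminogen binds less (mm9 chr14:75642094-75683358), and had 4789, 4729 and 4077 reads in the saline mice and 6866, 6611 and 7417 in the IL-1β mice in TruSeq, 1.59-fold higher (log2 fold change 0.67 ± 0.10, adjusted p = 0.000714). It rose 1.74-fold in Pico (adjusted p = 2.91e-05) and 1.62-fold in V4 (adjusted p = 0.00398). Plg, the plasminogen gene, had 29990, 27890 and 28095 reads in the saline mice and 23128, 22096 and 24403 in the IL-1β mice in TruSeq (-0.26 ± 0.08, adjusted p = 0.0329, 0.395 with TMM factors, so that call is lost). The TruSeq call was also lost without I9579, I9582, U9574 or U9575 (adjusted p = 0.0532 to 0.102). In Pico it had 9004, 9269 and 8598 reads in the saline mice and 6626, 6769 and 7558 in the IL-1β mice (-0.33 ± 0.07, adjusted p = 0.00216), and in V4 21534, 21566 and 19653 reads in the saline mice and 15638, 15739 and 17090 in the IL-1β mice (-0.37 ± 0.11, adjusted p = 0.0555). Reads of Cpb2 for each read of Plg went from 0.158 ± 0.0123 to 0.300 ± 0.0036 in TruSeq, from 0.114 ± 0.0116 to 0.249 ± 0.0208 in Pico and from 0.289 ± 0.00763 to 0.605 ± 0.021 in V4.

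Hrg encodes a plasma protein that binds plasminogen and heparin, and had 9972, 10221 and 10170 reads in the saline mice and 5590, 5733 and 6935 in the IL-1β mice in TruSeq (-0.70 ± 0.10, adjusted p = 0.000591). It fell in Pico too, from 3626, 4029 and 3747 reads in the saline mice to 2347, 2325 and 2683 in the IL-1β mice (-0.61 ± 0.08, adjusted p = 7.76e-05), while V4 gave 8228, 9230 and 7988 reads in the saline mice and 4984, 6105 and 7625 in the IL-1β mice without a call (adjusted p = 0.102). Serpinf2, the gene of α2-antiplasmin, had 9010, 7891 and 7757 reads in the saline mice and 9421, 8841 and 10396 in the IL-1β mice in TruSeq, with a log2 fold change of 0.26 ± 0.10 (adjusted p = 0.0726, 0.0103 with TMM factors, which gains a call). Plaur, the urokinase receptor gene, had 10, 5 and 3 reads in the saline mice and 14, 20 and 27 in the IL-1β mice in TruSeq, 3, 0 and 0 reads in the saline mice and 2, 17 and 10 in the IL-1β mice in Pico and 8, 2 and 4 reads in the saline mice and 56, 23 and 37 in the IL-1β mice in V4. It was called higher in each kit (log2 fold change 1.83 ± 0.46, 3.04 ± 0.94 and 3.02 ± 0.78, adjusted p = 0.0131, 0.0334 and 0.0321), on few reads. The saline libraries of Pico held 3 reads in all, and the ratio of summed counts there was 9.85 (95% exact interval 3.05 to 50.5, counting error only). In Pico the treatments overlapped. The Plaur call was lost without U9575 or U9576 in TruSeq (adjusted p = 0.0631 to 0.0675), without I9582, I9583, U9575 or U9576 in Pico (adjusted p = 0.168 to 0.223) and without any mouse other than I9582 in V4 (adjusted p = 0.0629 to 0.138).

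The plasminogen activators had few reads. Plat, the gene of tissue plasminogen activator, had 11, 7 and 4 reads in the saline mice and 15, 9 and 5 in the IL-1β mice in TruSeq and 2, 0 and 5 reads in the saline mice and 2, 0 and 5 in the IL-1β mice in Pico, without a call in either (adjusted p = 0.576 and 0.987). In V4 it had 21, 10 and 17 reads in the saline mice and 0, 0 and 0 in the IL-1β mice, and was called lower (adjusted p = 0.00119). Against a floor of 3 counts per library this is at least 5.31-fold lower. Plau, the urokinase gene, had 19, 21 and 11 reads in the saline mice and 4, 7 and 11 in the IL-1β mice in TruSeq (-1.17 ± 0.44, adjusted p = 0.0669) and 9, 3 and 12 reads in the saline mice and 4, 8 and 14 in the IL-1β mice in Pico (adjusted p = 0.899).

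F2r encodes the thrombin receptor of the cell surface and had 635, 443 and 471 reads in the saline mice and 138, 161 and 150 in the IL-1β mice in TruSeq, 241, 122 and 166 reads in the saline mice and 89, 85 and 57 in the IL-1β mice in Pico and 410, 237 and 121 reads in the saline mice and 68, 58 and 81 in the IL-1β mice in V4. The treatments did not overlap in any kit. The log2 fold change was -1.72 ± 0.17 in TruSeq (adjusted p = 6.56e-05), -1.13 ± 0.28 in Pico (adjusted p = 0.00831, and 0.0555 to 0.1 without I9579, I9582, I9583 or U9574) and -1.71 ± 0.50 in V4 (adjusted p = 0.0518).

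**Figure D3:**
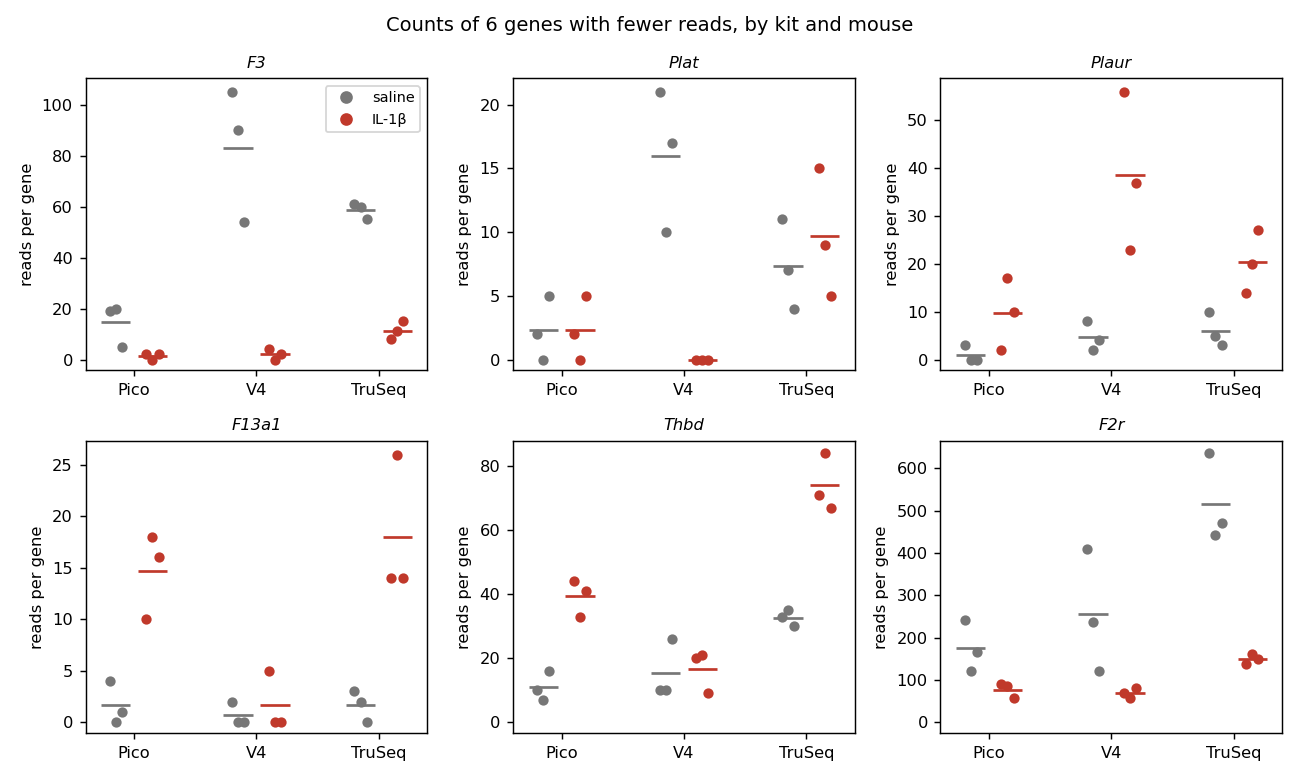
Reads of F3, Plat, Plaur, F13a1, Thbd and F2r in each mouse (points, grey saline and red IL-1β, lines are means of 3) in Pico, V4 and TruSeq, each panel on its own scale from 0. F3 and F2r are lower in every IL-1β mouse in all 3 kits, and Plat separates only in V4, where the IL-1β mice have 0 reads.

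By role with library totals in TruSeq, 10 of 15 procoagulant genes fell and 1 rose, with a median log2 fold change of -0.64. Of the 9 anticoagulant genes, 5 fell and 2 rose (median -0.25), and of the 7 fibrinolytic genes, 2 fell and 2 rose (median 0.26). With TMM factors the counts were 9 and 1, 3 and 3, and 1 and 3. In Pico 7 procoagulant genes fell and 1 rose, 4 anticoagulant genes fell and 2 rose, and 2 fibrinolytic genes fell and 2 rose (medians -0.50, -0.23 and 0.07). In V4 the numbers were 4 and 0, 2 and 1, and 1 and 2 (medians -0.53, -0.38 and -0.11). The sign of the fibrinolytic median thus differed between kits, and that group pools activators of plasmin with inhibitors. The vitamin K-dependent members (F2, F7, F9, F10, Proc, Pros1 and Proz) cut across the roles: 4 of 7 fell in TruSeq, 3 in Pico and 2 in V4, and none rose. Of all genes, 21.8% fell and 12.3% rose in TruSeq, 10.8% and 6.78% in Pico, and 7.41% and 3.6% in V4, so some of these counts, such as 2 of 7 fibrinolytic genes lower in TruSeq, lie near the share of all genes. The median of all V4 members was -0.41 also with Plat set at its bound. This had to follow, since Plat lies below that median either way.

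Neighbouring members on a chromosome did not always change to the same extent. F7, F10 and Proz stand in a row on the plus strand of chromosome 8 (mm9, GENCODE annotation, chr8:13026034-13075006), with 1498 bases between F7 and F10 and 4231 between F10 and Proz. F7 and Proz fell and F10 between them was not called in any kit. The log2 fold changes of F10 were small but below 0 in each (-0.16 in Pico, -0.23 in V4 and -0.20 in TruSeq). Reads of F7 for each read of F10 went from 0.242 ± 0.0218 in the saline mice to 0.151 ± 0.00372 in the IL-1β mice of TruSeq, and those of Proz for each read of F10 from 0.842 ± 0.0207 to 0.553 ± 0.0606 in Pico. The ranges of the treatments did not overlap for either ratio in any kit. F11 and Klkb1, 7410 bases apart on the minus strand of chr8:46326524-46393820, both fell in TruSeq and Pico. On chromosome 16, Hrg, Kng2 and Kng1 lie within 24197 and 28763 bases of each other, and the reads of Hrg for each read of Kng2 went from 3.27 ± 0.0161 to 1.98 ± 0.142 in TruSeq, while those of Kng1 went from 8.21 ± 0.127 to 6.40 ± 0.304.

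**Figure D4:**
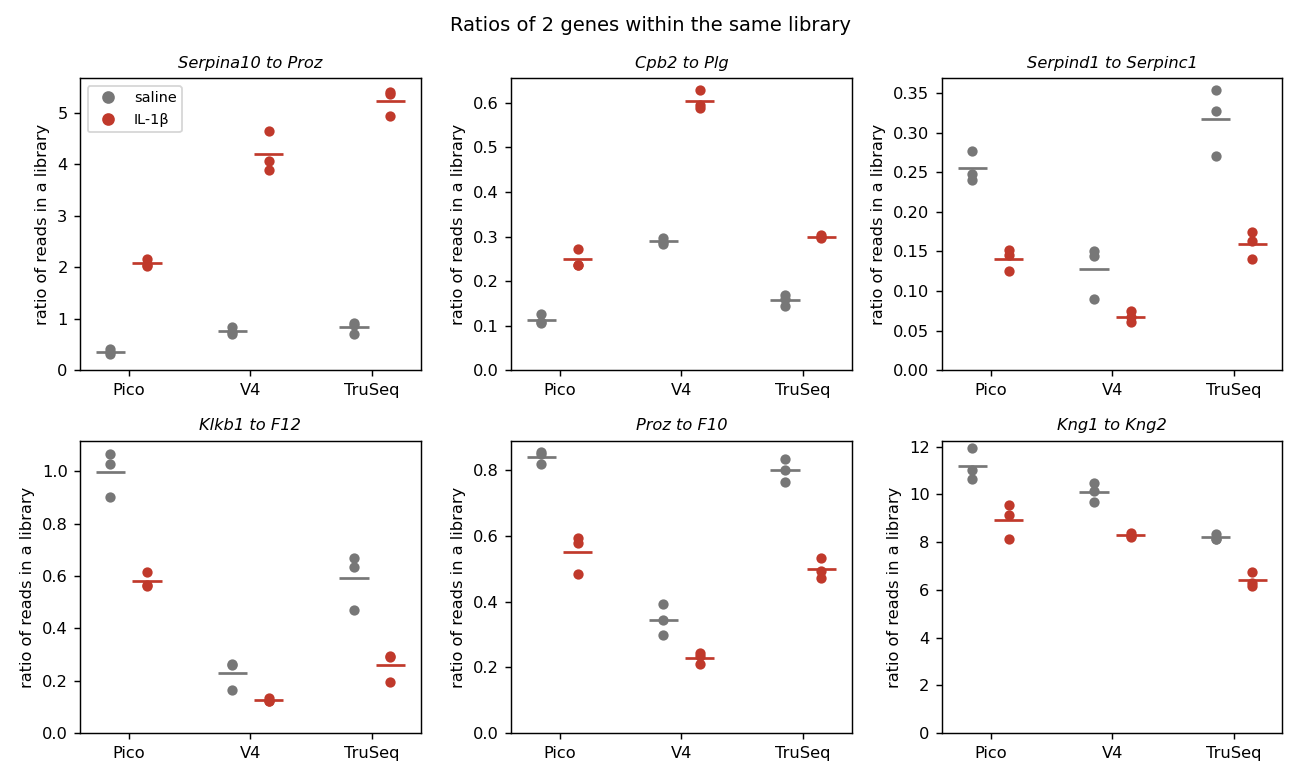
Reads of 1 gene divided by reads of another in the same library, in Pico, V4 and TruSeq; points are mice (grey saline, red IL-1β), lines are means and axes start at 0. In TruSeq Serpina10 goes from 0.833 to 5.23 reads for each read of Proz, and in none of the 6 ratios do the treatments overlap in any kit.

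Per length of exon, the members spanned a wide range in the saline livers of TruSeq. Serpinc1 stood at 841 ± 61.0 CPM per kilobase and Plg at 815 ± 39.4, within each other's spread, followed by Kng1 (629 ± 10.6), Hrg (457 ± 3.16) and F2 (322 ± 19.8). The length used is that of all annotated exons of a gene together. For F2 and Kng1 it is 4594 and 3159 bases, beside 1988 and 2255 in the longest coding transcript. On that shorter length both would stand higher, so their places in this order depend on the length used. Among the hepatocyte proteases F7 (48.1 ± 4.66) and F11 (33.8 ± 4.43) were lowest. Lower still were F2r at 12.2 ± 2.56, F3 at 2.45 ± 0.151, F8 at 1.17 ± 0.130, Thbd at 0.688 ± 0.0552, Vwf at 0.340 ± 0.0171 and F13a1 at 0.0203 ± 0.0187. Of the members that rose, Cpb2 (241 ± 22.5) and Serpina10 (152 ± 18.8) stood among the abundant genes and Thbd, Plaur and F13a1 among the rare ones.

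The kits differed in level by length of gene. The tables were normalized separately, so levels across them are a description. The log2 ratio of CPM (plus 0.5) in V4 to those in TruSeq was -2.96 ± 0.19 for F5, -1.19 ± 0.42 for Vwf and -1.08 ± 0.46 for F8 (SD over 6 mice), the members with the longest exonic sequence, against 1.46 ± 0.18 for F12 and 1.32 ± 0.17 for Proc. In Pico F8 stood at 2.83 ± 0.16, Vwf at 1.43 ± 0.42 and F5 at 1.08 ± 0.14. Spearman's correlation of this ratio with exonic length was -0.57 over 31 members in V4 and 0.60 over 32 in Pico, beside -0.59 over 11774 genes and 0.42 over 11638 genes averaging 20 or more reads in either kit. The points share the same libraries and mice. Of these 3 long genes, F8 and Vwf were called in TruSeq and not in V4, where they had 6 to 58 reads per library.

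**Figure D5:**
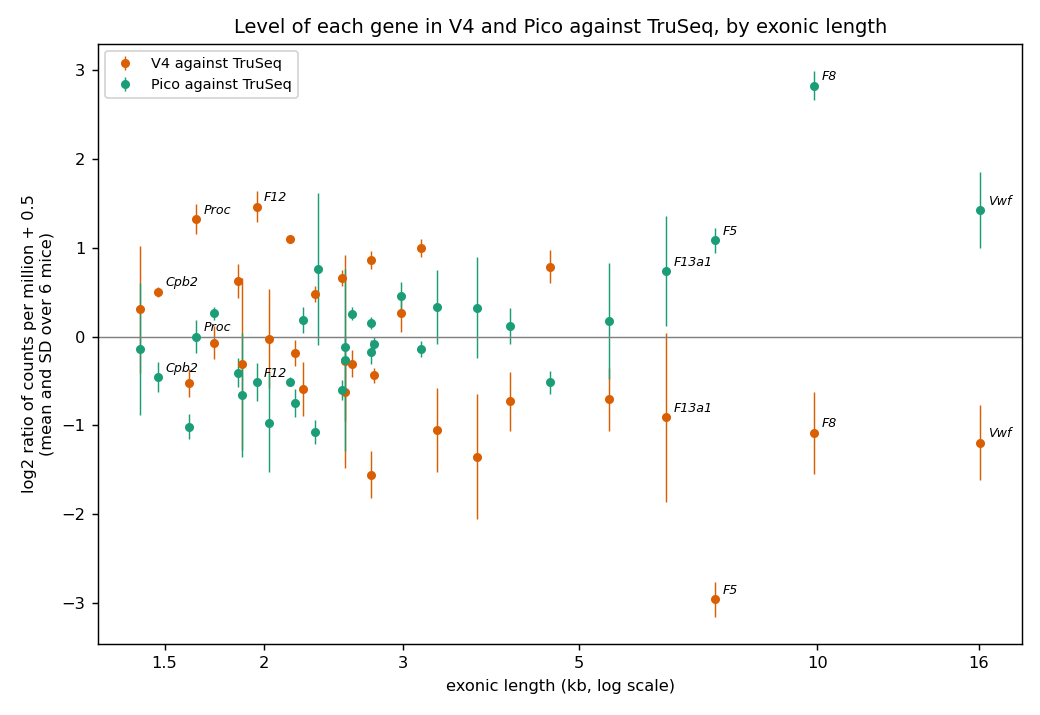
Log2 ratio of CPM plus 0.5 in V4 (orange) or Pico (green) to TruSeq for each member, mean and SD over 6 mice, against exonic length in kilobases on a log scale. F5, F8 and Vwf lie below 0 in V4 and above 0 in Pico.

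A call in 1 kit and not in another was tested as an interaction of kit and treatment, which gave no member and no gene at an adjusted p of at most 0.05 in any pair of kits (limma-voom, 0% of the 17207 genes shared by Pico and TruSeq, of 17147 for V4 with TruSeq, and of 16395 for Pico with V4). At an unadjusted p under 0.05 there were 945, 1090 and 900 genes, and 0, 3 and 2 members. The members were Plat (response in V4 minus that in TruSeq of -5.37 on the log2 scale, SE 0.84, adjusted p = 0.101), F3 (-3.17, SE 0.86, adjusted p = 0.399) and F13a1 (-3.10, SE 1.38, adjusted p = 0.754), and, between Pico and V4, Plat (adjusted p = 0.553) and F5 (adjusted p = 0.865). DESeq2 called Plat between V4 and TruSeq (adjusted p = 0.0118, with 0.362% of genes called), as did limma-voom without mouse U9576 (adjusted p = 0.0458, with 0.344% called). The fit with each mouse as a block called no member.

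Mouse U9576 of the saline group weighed on V4. Without it, 12 members were lower in V4 in place of 7, where 8.51% of all genes were, and F9, F13b, F2r, Kng1 and Plg joined the list. Their counts in that library (702, 932, 121, 45432 and 19653 reads) were the lowest of the 3 saline mice. This follows largely from picking members that were called only without U9576.

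Genes made outside hepatocytes were read beside markers of those cells. Fewer cells of a type and less RNA per cell cannot be told apart in bulk liver. Of 8 endothelial markers in TruSeq, Kdr, Tek, Stab2, Eng and Pecam1 fell, Lyve1 rose and Cdh5 and Tie1 were not called, and their summed level went from 180 to 194 CPM in the saline mice to 100 to 125 in the IL-1β mice. F8, Vwf and Tfpi fell with these and Thbd rose. Of 6 macrophage markers, Emr1, Clec4f, Vsig4 and Csf1r fell, Marco rose and Cd68 was not called, with sums of 96.4 to 161 and 48.9 to 69.6. Of 6 neutrophil markers, S100a8, S100a9, Csf3r, Cxcr2 and Retnlg rose and Ly6g (0 to 2 reads) was not called, with sums of 3.36 to 6.08 and 44.7 to 87.8. Of the 5 platelet markers listed, 1 (Pf4) rose, with 1, 2 and 4 reads in the saline mice and 9, 9 and 15 in the IL-1β mice, and the summed levels overlapped (2.69 to 3.19 and 2.59 to 3.95). F13a1 and Plaur rose, as did most of the neutrophil markers and 1 platelet marker, while most of the macrophage markers fell. Of 6 stellate cell markers 3 fell (sums of 261 to 302 and 148 to 192), and of 4 bile duct markers 2 rose (5.06 to 6.40 and 8.30 to 12.9). Of the 6 hepatocyte markers Alb fell, Tf and Hnf4a rose and 3 were not called, with the sum at 67337 to 71765 in the IL-1β mice. Alb made up most of this sum in every mouse, so the sum mainly follows that gene. The part of these shifts in the changes of the members was not tested.

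Other genes of the pathway were taken from lists fixed by role, also with earlier results of these data known. Their counts stand beside 12.3% of all genes higher and 21.8% lower in TruSeq, so a count of 1 or 2 in lists this short is not read as a result about the list. Of 9 regulators of plasmin in TruSeq, 4 rose and 1 fell. S100a10, which holds plasminogen at the cell surface, rose in all 3 kits (1.78 ± 0.20 in TruSeq), and Vtn, the vitronectin gene, rose in TruSeq (0.52 ± 0.09) and Pico (0.26 ± 0.07). Serpina5 and Serping1 rose in TruSeq, Plgrkt (listed as 5033414D02Rik), a plasminogen receptor, fell (-1.05 ± 0.27), and Serpine2, Anxa2, Lrp1 and Serpinb2 (0 or 1 read) were not called. Of the 8 tested in Pico, Vtn and S100a10 rose, and of the 8 in V4 S100a10 rose, and none fell.

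Of 6 genes of the vitamin K cycle and of secretion, 2 fell and 1 rose in TruSeq. Lman1, a receptor that carries factors V and VIII out of the endoplasmic reticulum, had 3793, 4755 and 4192 reads in the saline mice and 2810, 2736 and 2800 in the IL-1β mice (-0.56 ± 0.10, adjusted p = 0.00199), and fell in Pico and V4 too. Its partner Mcfd2 rose in TruSeq (0.40 ± 0.11). Vkorc1, which recycles vitamin K, fell in TruSeq (-0.56 ± 0.09), and Ggcx, the carboxylase of the vitamin K-dependent factors, and Vkorc1l1 were not called in any kit. Furin, a protease that trims precursors, fell in V4 (-1.73 ± 0.29) and in Pico (-0.36 ± 0.10, a call lost with TMM factors), and stood at -0.02 ± 0.13 in TruSeq. Of 7 relatives and further thrombin receptors in TruSeq, Adamts13, the protease that cuts von Willebrand factor, fell (-1.18 ± 0.24), F2rl1 rose (1.51 ± 0.49) and Tfpi2, F2rl2, F2rl3, Habp2 and Hpn were not called. In Pico Hpn fell, a call lost with TMM factors, and in V4 none of the 7 was called.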

How the data were processed

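Per the labels and the study's methods, the authors aligned reads with GSNAP to mm9, removed ribosomal reads, resampled each kit to equal depth with their PORT pipeline and deposited counts, whole reads per gene, sense reads only for the stranded kits and unstranded for V4. Within a kit, limma-voom (limma 3.58.1, R 4.3.3) used library totals and every gene with a read in 1 library or more, with Benjamini-Hochberg adjustment, and responses between kits as an interaction over 12 libraries. All 32 members are named. Members, lists and arms were chosen with earlier results of these data known. Coordinates of genes are those of the GENCODE annotation of mm9, and promoters those of GRCm38.p6 in RefSeq, and no coordinate was converted. Same-numbered libraries come from the same animal, and deviations from group means correlated within a mouse at 0.179 to 0.418 (Pico, TruSeq), 0.166 to 0.416 (V4, TruSeq) and 0.0711 to 0.224 (Pico, V4). Alternatives were TMM factors, edgeR 4.0.16, DESeq2 1.42.0, a filter of 10 counts in 3 libraries, no filter, thinning to 4024632 counts, thresholds of 0.01 and 0.1, leaving out each mouse, and the mouse as a block. The fits were tested on simulated counts. Changes were simulated only in genes with more reads than the rarest members, such as Plat and F13a1. They were also larger than those of members such as Serpinc1, so the simulation does not bear on these members. No protein sequences were used, and 1 gene of a pathway list is not reported here.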

Additional observations from a re-analysis of the deposited data

Results flagged for a closer look

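One result stood out as a difference in response between kits. The response of Plat, the gene of tissue plasminogen activator, differed by -6.83 on the log2 scale between V4 and TruSeq, the lower response being that in V4, in the interaction test of DESeq2 (adjusted p = 0.0118). The 3 IL-1β libraries of V4 held 0 reads and the saline libraries 21, 10 and 17, while TruSeq held 15, 9 and 5 reads in the IL-1β mice and 11, 7 and 4 in the saline mice. The size rests on a group at 0 and is no bound, and limma-voom did not call the difference (adjusted p = 0.101).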

How the results depend on the processing

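The counts of members that rose or fell stayed within 1.5 times of their value under TMM factors, edgeR, DESeq2, a filter on low counts, equal depth and thresholds of 0.01 and 0.1. Leaving out 1 mouse moved the rises in Pico to 3 at the lowest (without I9582 or U9575) and 5 at the highest, and the falls in V4 to between 5 and 12 (12 without U9576). Members with a response that differed between V4 and TruSeq numbered 0, but 1 (Plat) with DESeq2, and between 0 and 1 on leaving out a mouse. A replicate block for each mouse gave 0 members in each pair of kits. It was fitted for the differences between kits alone, since a mouse has 1 library in each kit. Fits with no filter equal those reported, because every listed gene had a read.

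Some members without a call changed sign, as log2 fold changes. With TMM factors, edgeR and DESeq2 in turn these were, in V4, F2 (0.026, 0.023 and 0.030), F12 (0.025, 0.027 and 0.031) and Kng2 (0.16, 0.15 and 0.16), and in TruSeq F2 (0.15, 0.15 and 0.15) and Pros1 (0.16, 0.14 and 0.14). At equal depth they were F2 (0.0047) and Pros1 (0.042) in TruSeq. On leaving out a mouse the range was -0.63 to 0.28 for Tfpi, -0.94 to 0.99 for Plat and -0.38 to 0.60 for Plau in Pico. In V4 it was -0.76 to 1.17 for F13a1, -0.085 to 0.034 for Kng2, -0.33 to 0.31 for Procr and -0.045 to 0.61 for Thbd, and in TruSeq -0.055 to 0.038 for F2, -0.056 to 0.15 for F12, -0.011 to 0.060 for Kng2 and -0.18 to 0.12 for Pros1. The causes were not tested.

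Of the 52 calls over all members and kits, 46 were kept with TMM factors, 45 with edgeR, 45 with DESeq2 and 50 at equal depth. With 3 mice a group and 1 library of each mouse in a kit, the p-values rest on the spread between libraries. That spread holds both animal and library preparation. The largest SEs (1.11 and 1.05 on the log2 scale) were those of F13a1 in V4 and Plat in Pico, each at 0 to 5 reads per library.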
